A study of Homo sapiens with 10 samples.

Results

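The peak lists compared here come from CTCF chromatin immunoprecipitation sequencing (ChIP-seq) in HEK-293T cells, an established human embryonic kidney line that carries the SV40 large T antigen. Each CTCF library was mapped to the human genome build hg38 with its repeats masked (replaced by unknown bases) and again to the unmasked genome, and peaks were called from both alignments. The question addressed is what CTCF occupancy a peak list gains or loses when repeats are taken out of the genome before mapping. The 6 CTCF lists held 209950 regions, of 405081 regions in the 13 lists of the series that belong to single libraries. A peak was called shared when it overlapped a peak of the other list of the same library by at least 1 bp, and otherwise unmasked only or masked only.

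The CTCF libraries were made from 3 transduced cell populations. CT cells received a lentivirus with a non-targeting shRNA, KD cells a lentivirus with an shRNA that silences CGGBP1 (a DNA-binding protein with affinity for CGG repeats), and OE cells a lentivirus that overexpresses CGGBP1. All 3 populations share the HEK-293T background. H3K4me3, H3K9me3 and H3K27me3 lists exist for CT and KD, and an input library (chromatin without immunoprecipitation) has 1 list. For H3K9me3 and H3K27me3 the labels exchange the antibodies that the methods of the study give, and these lists are called here by the mark in their titles. Each condition has 1 library, so no difference between conditions has a replicate check and no test across samples was possible. The lists hold positions only, without scores or reads, so the depth behind each peak is unknown from them. Confidence intervals are exact Clopper-Pearson 95% intervals and cover counting error only. Peaks near each other share chromatin and reads, so neighbouring peaks are not independent.

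CTCF is a zinc finger protein that binds a long CG-rich motif, stops loop extrusion by cohesin and marks the boundaries of chromatin domains. Many of its sites lie in non-repetitive DNA, but transposable elements have also carried its motif through mammalian genomes. Abundant human repeats include the L1 retrotransposon, spread over the chromosome arms, and alpha satellite, the tandem repeat of centromeres. A short read from a young repeat can match many copies, so its placement is uncertain, and masking removes such sequence before mapping altogether.

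Repeat sequences were met often in the unmasked-only peaks. The following 24-mers (runs of 24 bases, counted on either strand) were among those present in the largest numbers of unmasked-only peaks of at least 1 library, after leaving out any 24-mer that shared over 20% of its peaks with a higher one. They are printed in lower case, 5′ to 3′, and are classed here from textbook knowledge of these repeats and not from a repeat annotation.
alpha satellite, with the box bound by the centromere protein CENP-B: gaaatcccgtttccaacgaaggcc
alpha satellite, second: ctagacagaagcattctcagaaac
L1 retrotransposon, first: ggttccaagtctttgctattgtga
L1 retrotransposon, second: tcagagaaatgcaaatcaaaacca

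The 24-mer with the CENP-B box occurs 26941 times in the reference. It lay in 966 of 27982 unmasked-only peaks of CT, 1151 of 24939 of KD and 1085 of 28467 of OE. It lay in 0 shared and 0 masked-only peaks of each library. Masked sequence takes no reads in the masked alignment, and these 24-mers were chosen for lying in many unmasked-only peaks. Such zeros therefore follow largely from the class rule and the choice, and are given as a description. The second alpha satellite 24-mer, with 40702 occurrences in the reference, lay in 761, 787 and 923 unmasked-only peaks of CT, KD and OE. The centromeric sequence was thus present in each of the 3 libraries in the list made without masking. The first L1 24-mer (20773 occurrences) was in 817 unmasked-only peaks of CT, 298 of KD and 266 of OE, and the second was in 658, 206 and 149. Both L1 24-mers were therefore met in more unmasked-only peaks of CT than of KD or OE, while the alpha satellite box was met in more peaks of KD and OE.

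Whole peaks from regions outside promoters illustrate the classes. Capitals mark bases that lie in a 24-mer met 10 or more times in the reference, both strands counted, which are called repeated bases from here on. The first peak was unmasked only and the second masked only, each in the same class in all 3 libraries. Positions are those of the CT peak in hg38, on the forward strand.
unmasked only, outside genes, chr16:38238222-38238470: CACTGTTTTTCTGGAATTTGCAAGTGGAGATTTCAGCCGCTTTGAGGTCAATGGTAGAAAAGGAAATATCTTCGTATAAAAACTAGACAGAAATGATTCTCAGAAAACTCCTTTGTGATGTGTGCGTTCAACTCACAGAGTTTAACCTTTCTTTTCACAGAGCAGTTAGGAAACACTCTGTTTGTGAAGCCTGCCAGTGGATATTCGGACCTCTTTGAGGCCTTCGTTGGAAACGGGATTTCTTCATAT
masked only, outside genes, chr22:10718172-10718404: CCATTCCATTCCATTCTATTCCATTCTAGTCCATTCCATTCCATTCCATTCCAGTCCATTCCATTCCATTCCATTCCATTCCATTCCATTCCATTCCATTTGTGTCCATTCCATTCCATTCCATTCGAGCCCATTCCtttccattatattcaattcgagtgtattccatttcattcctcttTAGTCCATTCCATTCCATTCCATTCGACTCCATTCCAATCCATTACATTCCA

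The chromosome 16 peak is 249 bp of alpha satellite with 100% repeated bases and no CTCF site. On the other strand it holds the 24-mer with the CENP-B box. Its nearest protein-coding start was 3857236 bp away, and no H3K4me3 or input peak overlapped it. The masked-only peak had 81.1% repeated bases, although it was called from reads aligned to the masked genome. Sequence that recurs in the reference is thus not confined to the unmasked lists.

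In CT, 14996 of 42978 unmasked peaks (34.9%) were shared, and 15012 of 26635 masked peaks (56.4%). In KD, 22693 of 47632 unmasked peaks (47.6%) and 22717 of 24418 masked peaks (93.0%) were shared. In OE, 18749 of 47216 unmasked peaks (39.7%) and 18770 of 21071 masked peaks (89.1%) were shared. This left 27982, 24939 and 28467 unmasked-only peaks in CT, KD and OE, and 11623, 1701 and 2301 masked-only peaks. The unmasked lists thus differed from the masked ones by a like number of extra peaks in every library, whereas the masked-only class was large in CT alone. The p-value threshold for peak calling was 0.001 for masked reads and, per the labels, 0.0025 (CT and KD) or 0.005 (OE) for unmasked reads, so that masking and threshold cannot be told apart. The lists also differed in minimum length, as no unmasked peak was under 200 bp. Of the masked-only peaks, 73.3% in KD and 72.6% in OE were under 200 bp, against 18.6% and 24.5% of shared masked peaks. No CT masked peak of either class was under 200 bp, the narrowest being 212 bp. In KD and OE masking and minimum length therefore cannot be told apart either.

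**Figure D1:**
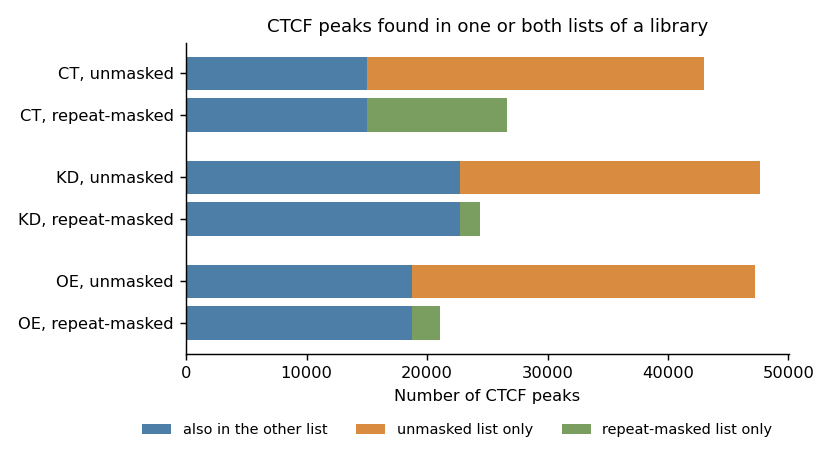
Bars give the number of CTCF peaks (horizontal axis) in the unmasked and repeat-masked list of CT, KD and OE, split into peaks also in the other list of the library and peaks in that list alone. The CT masked list stands apart with 11623 of 26635 peaks in that list alone, against 1701 of 24418 in KD and 2301 of 21071 in OE.

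Where both lists held a peak, they placed it at nearly the same position. In 14968 CT pairs of 1 masked with 1 unmasked peak, the centres lay a median of 21 bp apart, and the offset was 14 bp in 22657 KD pairs and 14 bp in 18711 OE pairs. The unmasked peak of a pair was wider by a median of 6 bp in CT and of 59 bp in KD and in OE. It was the wider one in 54.7% of CT pairs, 96.3% of KD pairs and 95.9% of OE pairs. The masked peak lay wholly inside the unmasked one in 33%, 86.5% and 86.0% of the pairs. Of the unmasked peaks, 19 of CT, 27 of KD and 24 of OE held 2 or more masked peaks. An unmasked peak was therefore seldom split in the masked list, and the pairs of CT differed in width from those of KD and OE.

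Masked peaks of near-minimal width were the least often shared. Every masked list had a lowest width at which many peaks piled up: 212 bp for CT with 9791 peaks (36.8% of the list), 167 bp for KD with 1480 (6.06%) and 162 bp for OE with 1407 (6.68%). Of the CT masked peaks at most 10 bp above that width, 27.9% (27.1 to 28.7%) had an unmasked peak, against 74.8% of those 11 to 50 bp above it, 88.8% of those 51 to 100 bp above it and 90.4% of wider ones. In KD the same shares were 68%, 90.8%, 98.2% and 97.8%, and in OE 61.4%, 86.1%, 96.9% and 95.3%. Of the masked-only peaks, 9595 of CT (82.6%), 881 of KD (51.8%) and 1032 of OE (44.9%) lay within 10 bp of the lowest width. The larger masked-only class of CT was therefore made of peaks of near-minimal width, and among the masked peaks more than 10 bp above it 84.8% of CT, 96.2% of KD and 93.1% of OE were shared.

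**Figure D2:**
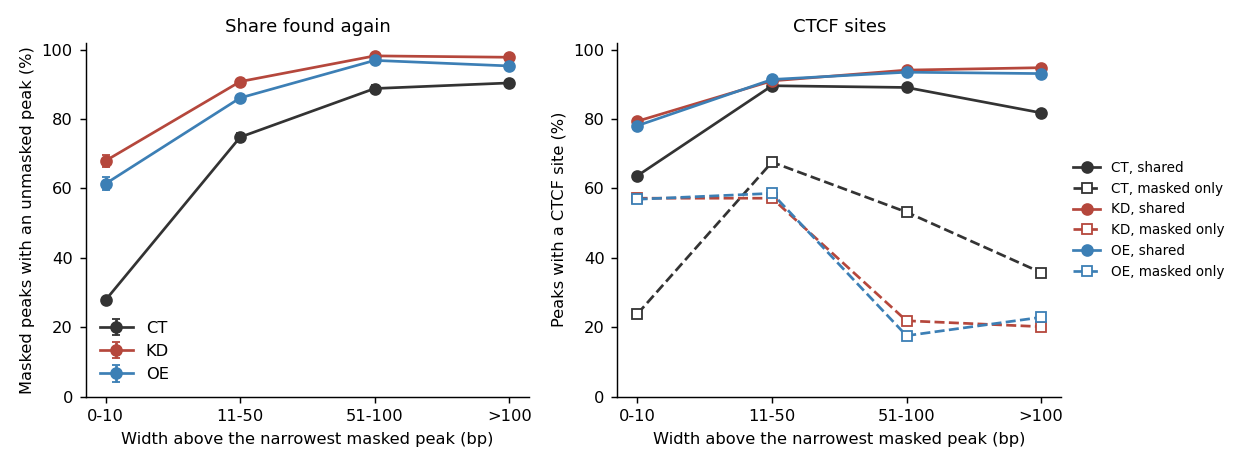
The left panel gives the percentage of masked peaks with an unmasked peak in the same library (bars are 95% intervals) by how far the peak width exceeds the narrowest width of its list, in bp. The right panel gives the percentage with a CTCF site for shared (filled, solid) and masked-only peaks (open, dashed): CT rises from 27.9% to 90.4% found again, and in KD and OE the site share of masked-only peaks drops from 57.2% and 56.9% in the narrowest bin to 20.2% and 22.9% in the widest.

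Masked-only peaks were seldom near misses of an unmasked peak. Within 500 bp of an unmasked peak lay 79 of them in CT (0.680%), 42 in KD (2.47%) and 82 in OE (3.56%), and the median gap to the nearest unmasked peak was 27.4, 18.2 and 16.2 kb. The unmasked-only peaks lay a median of 49.7, 59.0 and 65.7 kb from a masked peak.

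CTCF sites were found with a matrix learned from these data, because no external matrix was used. It was built from the 12859 masked CT peaks that overlapped masked peaks of KD and OE, starting from the 8-mer AGAGGGCG, which was in 6.80% of those peaks and 0.167% of windows spread over the genome. The result has 15 columns, whose most frequent bases read cCaccAGggGGcact, with capitals where a column carries at least 1 bit of information. A site is a match at p below 0.0001 on either strand. Windows of 250 bp placed every 10 kb over the chromosomes held a site in 10.8% of cases. Because shared peaks of CT helped to build the matrix, their site share describes in part the peaks it was trained on.

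Matches to the matrix were met at promoters in every class, some of them differing from its most frequent bases. In the lines that follow each sequence is 29 bases of hg38 on the strand of the site, with the 15 bases of the site in capitals and 7 bases on either side. The peaks were picked for holding a site from those nearest to a protein-coding transcription start among the peaks in the same class in all 3 libraries. The sites at C1QL4 and TUBA4A lack the G that is most frequent in column 11.
PRUNE1, shared, chr1:151024743-151024757 (+): agagaatCCTGCAGGGGGCACCagagatc
RAB7A, shared, chr3:128795216-128795230 (-): cttccttCCACCAGGGGGCACTgataaaa
STAG1, shared, chr3:136752404-136752418 (-): accgcggCCAGCAGAGGGCGGTccggacc
C1QL4, unmasked only, chr12:49337232-49337246 (-): actctggGCACCAGGGGTCGCTccgcctc
CT45A9, unmasked only, chrX:135871900-135871914 (-): aaggtcgCCTGTAGAGGGCGCCagagtca
TUBA4A, unmasked only, chr2:219277847-219277861 (+): cctccagACACTAGAGGCCGCTgttggcc
RNF141, masked only, chr11:10541259-10541273 (+): cgcgttgCCGGGAGACGGCGCCcaacctt
CT45A1, masked only, chrX:135713353-135713367 (+): aaggtcgCCTGTAGAGGGCGCCagtcagc
ZNF114, masked only, chr19:48271318-48271332 (+): ccggagcCCGCAAGGAGGCGCGttggctg

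RAB7A encodes a small GTPase of late endosomes and STAG1 a subunit of cohesin. The shared peaks at both genes each lay across an annotated start of a protein-coding transcript (1 and 0 bp from the peak centre). The one at STAG1 overlapped no H3K4me3 peak of CT or KD and the one at RAB7A a peak of KD only, whereas the shared peak at PRUNE1, a phosphodiesterase gene, overlapped one of both. The unmasked-only peak at C1QL4, a gene of the C1q complement-like family, had a GC content of 75.6% and no repeated base, yet it was absent from all 3 masked lists. It overlapped H3K4me3 peaks of CT and KD and no input peak. The masked-only peak 145 bp from the start of RNF141, a RING finger protein gene, also had no repeated base and overlapped H3K4me3 peaks of both conditions. Membership of 1 list therefore did not require repeated bases, as measured here, at these promoters. The measure can miss older or rarer repeats that are masked, and masked positions themselves were not read. The p-value threshold also differed between the lists, and its part at these promoters was not tested. The CT45A genes, a tandem family of cancer/testis antigens on chromosome X, gave unmasked-only peaks at CT45A9, CT45A8 and CT45A2 and a masked-only peak at CT45A1, with 33 to 40.0% repeated bases. These copies are nearly identical, so the copy to which their reads belong is uncertain. Others of the nearest peaks held no site, such as the shared peak at LARP7 (a 7SK RNA-binding protein), the unmasked-only peak at MOV10L1 (a germline RNA helicase) and the masked-only peak at ASAH2B.

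Shared peaks carried a CTCF site far more often than peaks of 1 list. On the unmasked side a site was in 82.0% of shared peaks of CT, 93.5% of KD and 92.5% of OE. Among unmasked-only peaks it was in 27.9% (27.3 to 28.4%), 44.1% and 35.0%, which is 54.1 points lower than in shared peaks in CT (interval 53.3 to 54.9), 49.4 lower in KD and 57.5 lower in OE. Among masked-only peaks it was in 29.7% of CT, 50.2% of KD and 49.8% of OE. All classes lay above the 10.8% of genome windows. Per length, the shared peaks of the unmasked lists held 3.67, 3.91 and 3.98 sites per kb in CT, KD and OE, the unmasked-only peaks 1.14, 1.93 and 1.57, the masked-only peaks 1.67, 3.16 and 3.12, and the genome windows 0.496. The order of the classes was thus the same when peak width was taken into account.

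Among masked-only peaks the widest held fewer sites than those 11 to 50 bp above the lowest width, and in CT the narrowest also held few. In CT the site share of masked-only peaks was 23.9% within 10 bp of the lowest width, 67.6% at 11 to 50 bp above it, 53.2% at 51 to 100 bp and 35.8% beyond. In KD it was 57.2%, 57.2%, 21.9% and 20.2%, and in OE 56.9%, 58.6%, 17.6% and 22.9%. Shared masked peaks were at 63.7% (CT), 79.4% (KD) and 78.1% (OE) in the narrowest bin and between 81.8 and 94.8% in the others. A wide masked peak without an unmasked counterpart therefore seldom held a site in KD and OE, where such peaks were few: 178 in KD and 266 in OE exceeded the lowest width by over 100 bp.

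Repeated bases were more common in unmasked-only peaks than in the other classes. The class rule favours this, since masked sequence takes no reads in the masked alignment, so the values are given as a description. At least 50% of the bases were repeated in 13144 unmasked-only peaks of CT (47.0%), 9050 of KD (36.3%) and 10421 of OE (36.6%). The same held for 2.93%, 2.27% and 2.52% of shared peaks and for 22.3% of genome windows. Unmasked-only peaks held 94.5% of the repeated bases of the CT unmasked list, 89.4% of KD and 92.2% of OE, in 65.0%, 49.3% and 57.5% of its covered bases. No repeated base at all was found in 10003 unmasked-only peaks of CT (35.7%), 11444 of KD (45.9%) and 13692 of OE (48.1%). A large part of the peaks absent from the masked lists was therefore free of abundant repeats by this measure, which finds young repeats better than old ones, so older masked repeats can be among them. Masked-only peaks had no repeated base in 84.5% (CT), 74.4% (KD) and 73.1% (OE), and at least 50% in 3.14%, 18.0% and 18.8%.

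**Figure D3:**
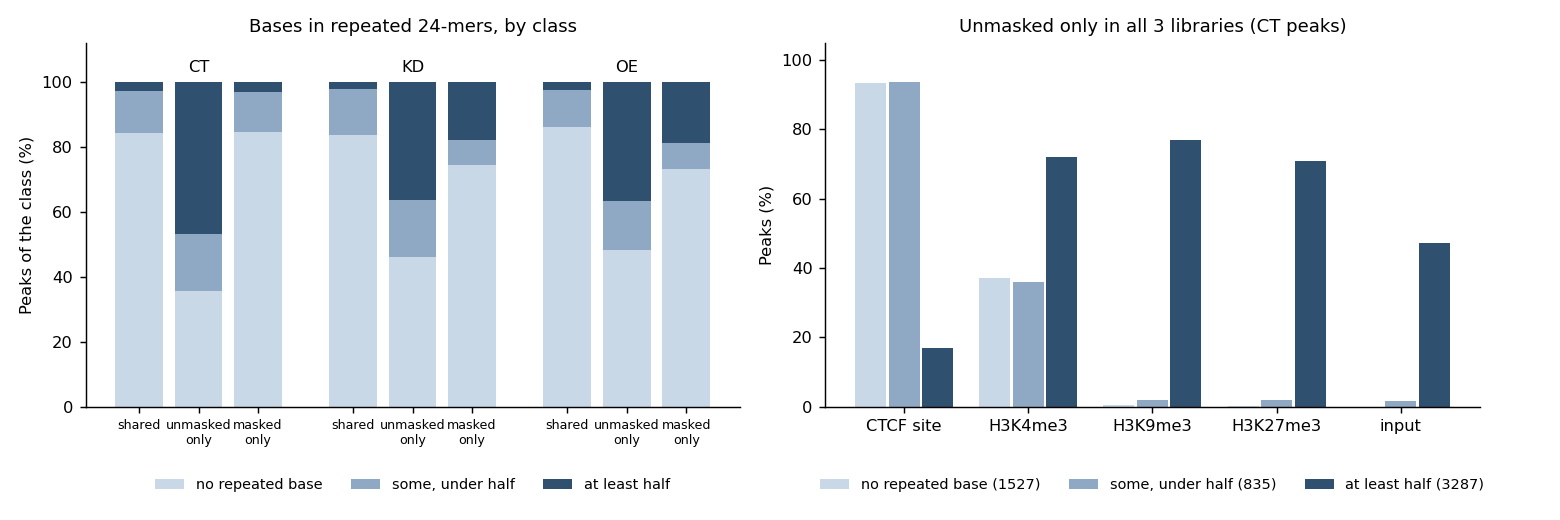
The left panel stacks the percentage of shared, unmasked-only and masked-only peaks of each library by repeated bases (no repeated base, some but under 50%, at least 50%). The right panel takes the 5649 CT peaks that were unmasked only in all 3 libraries and gives the percentage of each group (1527, 835 and 3287 peaks) with a CTCF site or overlapping an H3K4me3, H3K9me3, H3K27me3 or input peak: sites fall from 93.5% to 16.8% while H3K9me3 overlap goes from 0.524% to 76.8%.

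Sites were rarest in the most repeated unmasked-only peaks. A site was in 41.4%, 56.0% and 46.5% of unmasked-only peaks without a repeated base in CT, KD and OE. It was in 38.6%, 64.2% and 53.3% of those with some repeated bases, and in 13.6%, 19% and 12.2% of those with at least 50%. The most repeated peaks of CT and OE thus lay close to the 10.8% of genome windows. Of the 966 CT peaks with the alpha satellite 24-mer that holds the CENP-B box, 197 held a site, as did 238 of 1151 in KD and 139 of 1085 in OE. Of the 817 CT peaks with the first L1 24-mer 3 held one.

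GC content separated the classes less than sites did. The median was 44.8%, 45.6% and 45.9% in shared peaks of CT, KD and OE (unmasked side), 39.8%, 40.2% and 40.1% in unmasked-only peaks, and 40.0% in genome windows. Masked-only peaks had medians of 38.7% in CT, 42.5% in KD and 43.2% in OE. A GC content of 60% or more was found in 12.7%, 12.2% and 11.9% of shared peaks, 2.39%, 3.09% and 2.64% of unmasked-only peaks and 6.05%, 14.4% and 14.4% of masked-only peaks. The share of GC-rich peaks was thus close to that of shared peaks in the masked-only classes of KD and OE, and lower in that of CT.

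Shared peaks lay nearer to transcription starts of protein-coding genes. Centres within 1 kb of a transcription start of a protein-coding gene made up 8.01% of shared peaks of CT, 8.38% of KD and 7.93% of OE, and 2.49%, 3.99% and 3.75% of unmasked-only peaks. Among masked-only peaks the share was 4.80% (4.41 to 5.21%) for CT, 8.27% for KD and 6.65% for OE, with 2.48% of genome windows beside them. In KD the masked-only share differed from the shared one by -0.139 points, with an interval from -1.56 to 1.29. Exons held 8.39%, 8.84% and 9.20% of shared centres, 3.18%, 3.96% and 4.10% of unmasked-only centres and 7.21%, 8.46% and 7.77% of masked-only centres. More than 100 kb from a start lay 21.2%, 19.1% and 18.1% of shared peaks, against 45.9%, 44.7% and 44.6% of unmasked-only and 35.9%, 38.0% and 37.1% of masked-only peaks. The median distance was 26.6, 24.7 and 24.2 kb for shared, 77.8, 71.2 and 70.0 kb for unmasked-only and 50.7, 50.7 and 50.4 kb for masked-only peaks, with 61.5 kb for genome windows. With the starts of all genes in place of protein-coding ones, the unmasked-only median lay 11.5, 10.2 and 10.5 kb farther than the shared one in CT, KD and OE, against 51.2, 46.5 and 45.8 kb. The masked-only median then lay 4.95, 2.14 and 2.07 kb farther, against 24.1, 26.0 and 26.1 kb. The unmasked-only minus shared difference within 1 kb was -10.2, -8.41 and -8.73 points, against -5.52, -4.39 and -4.18.

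H3K4me3, the histone mark of active promoters, was overlapped by a larger share of shared peaks than of the other classes. In CT, 40.2% of shared, 19.3% of unmasked-only and 12.6% of masked-only peaks overlapped a CT H3K4me3 peak, and in KD 40.7%, 26.2% and 18.5% overlapped a KD H3K4me3 peak. Genome windows did so in 2.40% (CT) and 2.51% (KD). The order turned among peaks that kept their class in all 3 libraries, where 57.2% of unmasked-only and 49.3% of shared peaks of CT overlapped H3K4me3, and 56.6% and 50.9% of those of KD. Among all CT peaks with centres away from promoters, the shared, unmasked-only and masked-only values were 37.3%, 17.9% and 10.0%. The order of the whole classes was therefore not set by promoter peaks alone. In CT, shared peaks with a site overlapped H3K4me3 in 45.1% of cases and those without one in 18.3%, unmasked-only peaks in 28.3% and 15.9%, and masked-only peaks in 28.2% and 6.02%. In KD the shared peaks with and without a site were at 40.5% and 44%, unmasked-only peaks at 26.0% and 26.3%, and masked-only peaks at 22.5% and 14.4%. A higher H3K4me3 share of peaks with a site was thus seen in each class of CT, and in the masked-only class of KD. Whether CT and KD differ in this was not tested, with 1 library each.

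**Figure D4:**
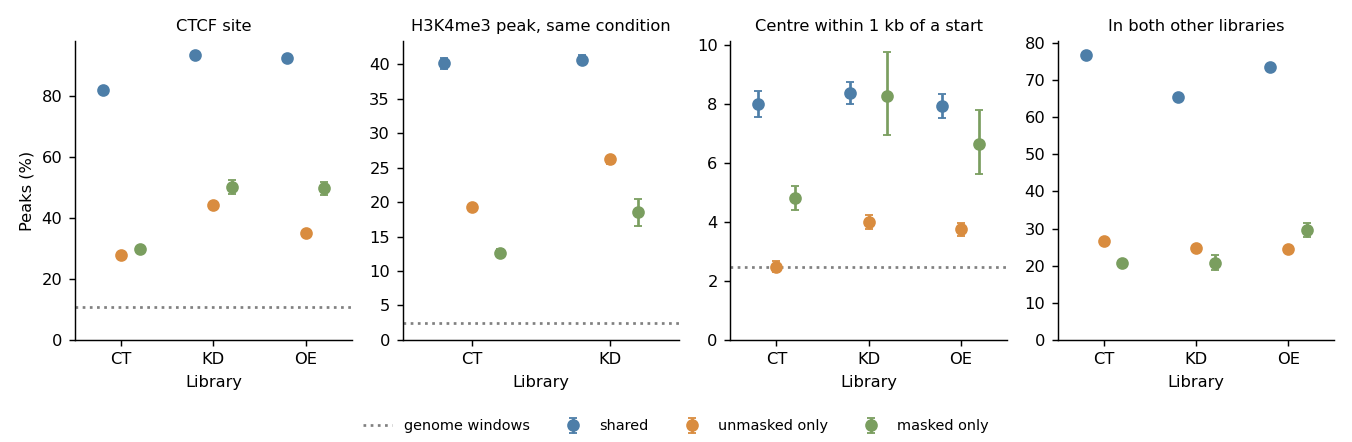
Points give the percentage of shared, unmasked-only and masked-only peaks (95% intervals as bars) of CT, KD and OE with a CTCF site, overlapping an H3K4me3 peak of the same condition (CT and KD), centred within 1 kb of a protein-coding transcription start, or present in a list of both other libraries, on axes of different range. Dotted lines mark genome windows (10.8%, 2.40% and 2.48%), and the shared class is highest in each panel, with the masked-only share of KD within its interval near transcription starts.

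Among unmasked-only peaks, overlap with the other marks and the input was higher where bases were repeated. Of the unmasked-only peaks with at least 50% repeated bases, 32.6% in CT and 41.5% in KD overlapped an H3K9me3 peak, 24.1% and 36.6% an H3K27me3 peak, and 13.1% (CT), 21.4% (KD) and 20.5% (OE) a peak of the input library. Genome windows overlapped CT H3K9me3 peaks in 0.212%, CT H3K27me3 peaks in 0.0923% and input peaks in 0.0456% of cases. Without a repeated base the H3K9me3 shares were 0.230% and 0.0961% and the H3K27me3 shares 0.0800% and 0.0612%. H3K4me3 was also overlapped by 23.9% and 36.7% of the most repeated unmasked-only peaks. The 440 shared CT peaks with at least 50% repeated bases overlapped H3K9me3 in 21.6%, H3K27me3 in 27.3% and input in 20.7% of cases. The masked-only peaks of that kind had lower shares, with 4.11%, 6.58% and 5.75% in CT and 1.31%, 3.59% and 2.29% in KD, and 0.693% on input peaks in OE. H3K4me3 was overlapped by 9.80% of those KD masked-only peaks, against 20.5% of the ones without a repeated base. The 966 CT peaks with the alpha satellite 24-mer overlapped H3K4me3 in 44%, H3K9me3 in 53.4% and H3K27me3 in 42.2% of cases, and 278 of them lay on input peaks. Marks with opposite known roles were therefore found over this repeat-rich class, over which the input library also had peaks, and the part of the input in this overlap was not tested. Without peaks on input peaks, the H3K4me3 share of unmasked-only peaks was 25.4 points below that of shared peaks in CT and 19.6 below in KD, against 20.9 and 14.5 with them.

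Shared peaks recurred between libraries. In a list of both other libraries were 76.9% of the shared peaks of CT, 65.4% of KD and 73.4% of OE, against 26.6%, 24.8% and 24.5% of unmasked-only and 20.8%, 20.8% and 29.6% of masked-only peaks. In no list of the other libraries were 16.9%, 9.08% and 4.73% of shared, 61.6%, 49.3% and 53.2% of unmasked-only and 73.5%, 45.3% and 37.7% of masked-only peaks. Unmasked-only peaks of CT were in the masked lists of KD and OE in 6.66% and 5.14% of cases. Of the KD masked-only peaks 40.6% overlapped a masked peak of OE, and of those of OE 54.4% overlapped a masked peak of KD. The masked-only class of CT thus had the largest share found in no other library, while its share in both others was like that of KD. By width, the share of CT masked-only peaks found in another library was 19.2% in the narrowest bin, 71.2% at 11 to 50 bp above the lowest width, 56.8% at 51 to 100 bp and 40.4% beyond.

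Some peaks kept their class in all 3 libraries. They were 10270 shared peaks (68.5% of those of CT), 5649 unmasked-only peaks (20.2%) and 157 masked-only peaks (1.35%), counted on CT peaks. Recurrent shared peaks are largely the peaks on which the matrix was trained, so their site share was set in part in advance and is given as a description. A site was in 96.1% of them, 48.9% of the recurrent unmasked-only peaks and 28.0% of the recurrent masked-only peaks. The recurrent unmasked-only peaks fell into unlike groups. Those with no repeated base numbered 1527, of which 93.5% held a site, 37.0% overlapped H3K4me3, 0.524% overlapped H3K9me3 and none an input peak. Those with at least 50% repeated bases numbered 3287, of which 16.8% held a site, 72.0% overlapped H3K4me3, 76.8% H3K9me3, 70.8% H3K27me3 and 47.2% an input peak. The KD peaks of the same kind gave 1498 with 94.2% holding a site and 3282 with 17.2%, and the OE peaks 1533 with 94.1% and 3265 with 15.7%. The recurrent unmasked-only peaks thus included both a site-rich and a repeat-rich kind. Of the 157 recurrent masked-only peaks 58.0% had at least 50% repeated bases, against 3.14% of all masked-only peaks of CT.

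The share of unmasked peaks without a masked peak varied along the karyotype. It was highest on chromosome Y, with 95.2% of 104 peaks in CT, 90.6% of 64 in KD and 95% of 119 in OE. Chromosome 18 followed with 77.5%, 64.4% and 70.5%. The lowest share was on chromosome 15 in CT (56.8%) and on chromosome 17 in KD (38.6%) and OE (46.4%). Of the masked peaks on chromosome Y, 82.8% (CT), 66.7% (KD) and 76.9% (OE) had no unmasked peak. Both lists of chromosome Y therefore had little in common, on few peaks. Repeated bases made up a mean of 88.8% (CT), 77.7% (KD) and 85.0% (OE) of its unmasked-only peaks. The placement of their reads is therefore uncertain. Whether the peaks placed on chromosome Y reflect CTCF on that chromosome was not tested.

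**Figure D5:**
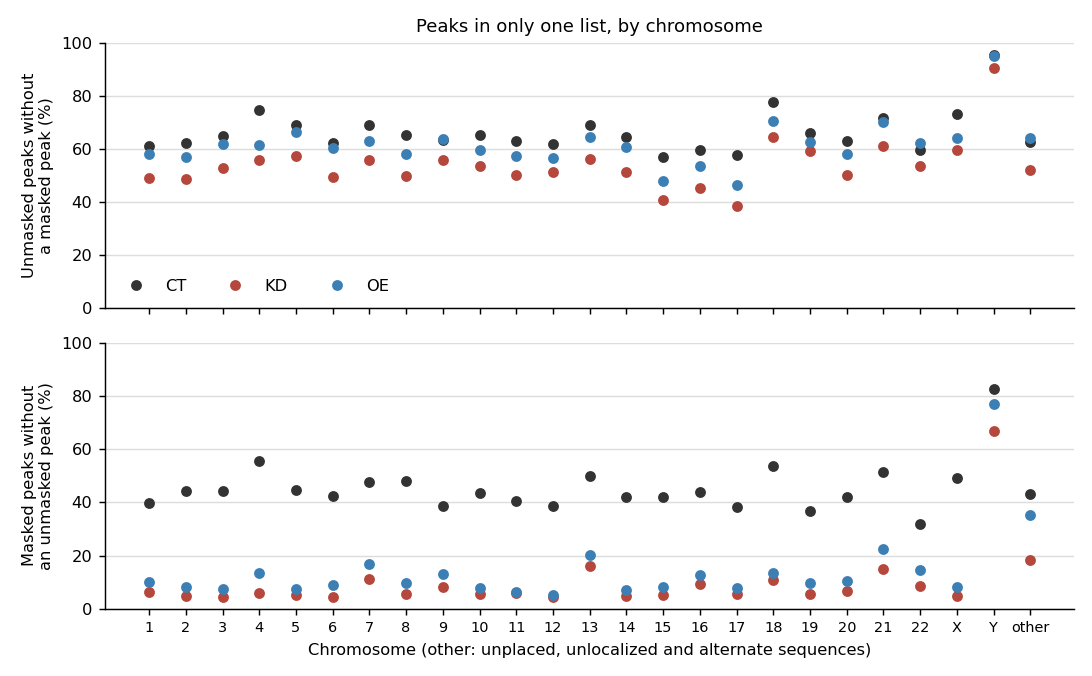
The upper panel gives the percentage of unmasked peaks without a masked peak and the lower panel the percentage of masked peaks without an unmasked peak, by chromosome (horizontal axis) for CT, KD and OE. Chromosome Y is highest for unmasked peaks in each library (90.6 to 95.2%), on few peaks and with uncertain placement of reads. CT lies above KD and OE on every chromosome in the lower panel.

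Gene families differed in which list described their CTCF occupancy. A gene was counted when a peak lay in its body or within 5 kb of it, and the values are set beside those of all 20033 protein-coding genes. This background is not matched for gene length, and a longer gene has more room for a peak. Of these, 35.3% (CT), 47.5% (KD) and 42.4% (OE) had a shared peak, 35.9%, 35.7% and 38.6% an unmasked-only peak, and 22.5%, 3.67% and 4.43% a masked-only peak. An unmasked-only peak and no shared peak was found at 19.3%, 14.9% and 17.9%, which are the genes whose peaks in the unmasked list had no shared one beside them.

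Of 61 clustered protocadherin genes, whose alternative promoters are chosen through CTCF, 44 in CT, 52 in KD and 49 in OE had a shared peak, and 38, 35 and 33 had an unmasked-only peak. As shares of the group both exceed the values over all genes, and masked-only peaks were at 31, 8 and 0 of these genes. A peak in or near several genes of a cluster is counted for each of them. Clustered genes are therefore not independent, distinct peaks were not counted, and the part of such sharing in the excess was not tested. Of 39 HOX genes, which order the body axis, 14, 23 and 22 had a shared peak and 7, 10 and 19 an unmasked-only peak. Of 94 histone genes 14, 20 and 20 had a shared peak and 5, 28 and 17 an unmasked-only one, and of 82 cytosolic ribosomal protein genes 28, 46 and 42 had a shared and 16, 16 and 22 an unmasked-only one. Both of the last groups were below the background for unmasked-only peaks in CT, KD and OE. The shares were 5.32%, 29.8% and 18.1% of histone genes and 19.5%, 19.5% and 26.8% of ribosomal protein genes.

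The multicopy families varied, with counts above and below the background. They were grouped by gene symbol without a limit to protein-coding genes, whereas the background holds protein-coding genes only. Of 42 DUX4 and DUX4L copies (a double homeobox gene of the D4Z4 array), 18 in CT, 11 in KD and 22 in OE had an unmasked-only peak, and 6, 3 and 16 a shared one. Of 30 USP17L copies (deubiquitinases in a tandem array) 2, 16 and 19 had an unmasked-only peak, and 2, 2 and 4 a shared one. Of 23 NPIPA and NPIPB genes 7, 12 and 14 had an unmasked-only peak against 5, 3 and 4 with a shared one, and of 25 TBC1D3 genes 8, 5 and 7 against 3, 4 and 2. Of 24 NBPF genes 15, 16 and 14 had a shared peak, and 10, 5 and 11 a masked-only one. Of 47 GOLGA6 and GOLGA8 genes 17, 18 and 15 had a shared and 8, 8 and 9 an unmasked-only peak. Reads from near-identical copies can be placed on any of them, so counts within these families are uncertain, and the families did not share 1 pattern.

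Of 870 annotated olfactory receptor genes, pseudogenes included, 41, 65 and 45 had a shared peak, 95, 64 and 66 an unmasked-only peak and 39, 1 and 8 a masked-only peak. These numbers are well below the background in each class. That background holds protein-coding genes only, without pseudogenes, and the part of gene length in the difference was not tested. Of 249 zinc finger genes on chromosome 19, 29, 44 and 32 had a shared and 57, 60 and 48 an unmasked-only peak. The cohesin gene STAG2 had 5 shared peaks in each of CT, KD and OE beside 3, 4 and 4 unmasked-only ones, and STAG1 had 3 shared peaks in each. CTCF itself had a shared peak in KD only (2), with 1 masked-only peak in CT. CGGBP1, the gene silenced or overexpressed here, had 1, 2 and 2 shared and 2, 3 and 0 unmasked-only peaks within 5 kb, and its expression is not measured by these lists.

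At promoters, defined as centres within 1 kb of a protein-coding start, the unmasked-only peaks were nearest to 666 genes in CT, 953 in KD and 1007 in OE, of which 624, 874 and 934 had no shared promoter peak in the same library. Masked-only peaks were nearest to 537, 127 and 136 genes, of which 519, 121 and 128 had no shared one. Shared promoter peaks were nearest to 1136, 1762 and 1408 genes. A list from 1 alignment thus left out promoter peaks that the other list held, in each library and in both directions.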

How the data were processed

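CTCF, histone and input ChIP-seq of HEK-293T cells was sequenced single-end on the Ion Torrent platform. According to the study's methods, the authors kept reads of 80 to 300 bases with a quality of at least 20, aligned them over their full length (Bowtie2) to hg38 with or without repeat masking, and used MACS2 for peak calling. The masked threshold was p below 0.001. For unmasked reads the methods give a minimum length of 200 and p below 0.005, whereas 0.0025 (CT, KD) and 0.005 (OE) stand in the labels. Tool versions are not given in the sources used here. The deposited lists hold positions only (3 columns), with starts read as counted from 1, since 0 of the 405081 regions start at 0 and 12 start at 1. Of the deposited lists 13 were used, and 6 lists of exclusive peaks were not used, because they are comparisons of the authors.

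Overlap (1 bp), width, GC, gene feature and distance to protein-coding starts (GENCODE release 44), overlap with histone and input peaks, repeated bases (24-mers occurring at least 10 times among the 455 reference sequences) and CTCF sites were computed with Python 3.11.15, numpy 2.4.6, scipy 1.17.1, pandas 2.3.3 and numba 0.67.0. The repeat measure stands in for RepeatMasker annotation, which was not used here. Masking also removes repeats older or rarer than it can find. Features and distances cover chromosomes 1 to 22, X and Y. Intervals of differences are normal 95% intervals. The site search, overlap and repeat steps were tested on simulated data. Members, gene lists and measures were chosen with earlier results of these data known. Named peaks were those in the same class in all 3 libraries, at most 300 bp wide, with the 3 nearest to a start in each library and, for CT, the 3 farthest and the 3 most repeated, outside chromosomes 8 and Y. Some named peaks and a leading 24-mer are not reported here. The alternatives tried were another overlap rule, minimum width, list size, sequence set, input filter, repeat and site definition, set of starts, GC window and H3K4me3 distance.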

Additional observations from a re-analysis of the deposited data

How the results depend on the processing

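With 1 library per condition no replicate could be left out. No paired analysis was possible because each condition has 1 library and no test was made. Each value was recomputed with 1 choice changed at a time, which gave 404 values over 52 results, and 355 of 362 differences between classes kept their sign. Of the other 7, 3 were unmasked-only median widths against shared ones (CT at 5 and 3 bp from -2 bp, KD at 0 from -47 bp) and 2 the KD masked-only difference near starts (0.81 and 1.16 points from -0.139). A value was taken as moved when it left its own 95% counting interval, which is narrow at these numbers, and the cause of such moves was not tested. In the values that follow, the site, repeat (at least 50% of bases repeated) and H3K4me3 differences are in percentage points, against the shared peaks of the same list.

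When a shared pair had to overlap by 50% or more of each peak, unmasked peaks were shared in 33.4% (CT), 45.3% (KD) and 37.6% (OE) and masked peaks in 53.8%, 88.3% and 84.2%. The unmasked-only site difference was then -47.6 (KD) and -56.3 (OE), the repeat difference 33 (KD), the H3K4me3 difference -13.3 (KD) and the masked-only site difference -30.3 (KD) and -33.6 (OE). Counting peaks within 500 bp as shared gave 40.2% for OE unmasked peaks.

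With the widest 15000 peaks of each list, unmasked peaks were shared in 29.6%, 51.4% and 48.0% and masked peaks in 29.7%, 51.5% and 48.1% of CT, KD and OE. A list cut by width loses partners of kept peaks by construction. The unmasked-only site differences were -56.2, -34.1 and -44.7, the repeat differences 34.7, 26.8 and 33.4 and the CT H3K4me3 difference -29.7. The masked-only site differences were -6.19, -4.3 and -6.35. Here 2 values reversed: the masked-only difference in peaks with at least 50% repeated bases in CT became -0.07 from 0.42, and that in median GC in KD became 0.78 from -3.93.

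With peaks of at least 200 bp, unmasked peaks were shared in 38.8% (KD) and 30.0% (OE) and masked peaks in 97.6% and 95.7%. The unmasked-only site differences were -43.8 and -51.2, the repeat differences 29.1 and 29.1, the KD H3K4me3 difference -16.5 and the masked-only site differences -68.5 and -68.0. Keeping only masked peaks over 10 bp wider than the narrowest, an alternative chosen after seeing the data, gave unmasked shares of 26.3%, 43.7% and 36.2% and masked shares of 84.8%, 96.2% and 93.1% for CT, KD and OE. The unmasked-only site differences were -47.3 (KD) and -55.8 (OE), the repeat differences 38.5, 31.6 and 32.2, the H3K4me3 differences -24.1 (CT) and -15.5 (KD) and the masked-only site differences -29.4, -51.0 and -48.8.

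Without peaks on input peaks the unmasked shares were 36.2%, 49.5% and 41.4%, the unmasked-only site differences -47.2 (KD) and -56.3 (OE), the repeat differences 41.2, 29.2 and 29.9 and the H3K4me3 differences -25.4 (CT) and -19.6 (KD). On chromosomes 1 to 22, X and Y alone, masked peaks were shared in 93.5% (KD) and 89.9% (OE). With 24-mers occurring at least 100 times the repeat differences were 41.6, 31 and 30.7. With sites at p below 0.00001 the unmasked-only site differences were -50.7, -47.2 and -54.4 and the CT masked-only one -48.6. With the 8-mer alone in place of the matrix they were -4.59, -3.86 and -4.51, and the masked-only ones -4.28, -2.42 and -3.07, since the 8-mer is present in few peaks of any class. With an H3K4me3 peak within 1 kb the H3K4me3 differences were -19.8 (CT) and -13.0 (KD).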

Other observations

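Recurrent unmasked-only peaks were a mixture by repeat content. Of the 5646 KD peaks that were unmasked only in all 3 libraries, 49.6% held a CTCF site, 56.6% overlapped H3K4me3, 45.5% H3K9me3 and 41.1% H3K27me3, and 27.8% lay on an input peak. Among KD unmasked-only peaks, other leading 24-mers than those described above were met as well. The 24-mer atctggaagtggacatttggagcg was in 311 of them, of which 140 held a site, and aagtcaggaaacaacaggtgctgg was in 233, against 726 unmasked-only peaks of CT. In OE, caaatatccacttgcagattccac was in 288 and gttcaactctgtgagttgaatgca in 258 unmasked-only peaks. On unplaced, unlocalised and alternate sequences together, 43.1% (CT), 18.3% (KD) and 35.2% (OE) of masked peaks had no unmasked peak.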
